A study of Homo sapiens with 36 samples.

Results

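The response to dexamethasone (dex), a synthetic glucocorticoid, was measured by RNA-seq in cells whose chromatin remodeler BRM had been depleted with siRNA. The libraries labelled siBRMsiNS were compared across all genes, 3 with dex against 3 with ethanol vehicle (etoh), chosen by their labels and paired by replicate number. They are 6 of the 36 libraries of the series. All cells were U2OS, a human osteosarcoma line, stably transfected with the alpha isoform of the glucocorticoid receptor (GR) and grown in low-glucose DMEM with 5% FBS. The siRNA was introduced by lipofection. Dex at 100 nM, or the same amount of ethanol, was added 48 h later for 8 h. Per the labels, the 3 biological replicates of a condition come from separate days. The comparison conditions, with the same line, doses and times, were siBRMsiHic5 (siRNA against BRM together with siRNA against the GR cofactor Hic-5) and siNSsiNS (control siRNA only), again 3 dex and 3 etoh libraries each. The sources used here give neither the number of clones in the line nor the promoter of its receptor transgene nor the siRNA sequences. The study addressed whether CHD9 and BRM, both chromatin remodelers, are needed for the hormone response of genes that Hic-5 holds back.

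Glucocorticoid binds GR in the cytoplasm, the chaperone complex is exchanged, and the receptor moves into the nucleus. There it binds glucocorticoid response elements as a dimer and also acts through other DNA-bound factors such as AP-1 and NF-kB. It raises feedback and metabolic genes such as FKBP5, TSC22D3 and PER1, and lowers many inflammatory genes. BRM, encoded by SMARCA2, and its close relative BRG1, encoded by SMARCA4, are the alternative ATPases of the SWI/SNF complex, which moves nucleosomes and is recruited by GR at many of its sites.

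SMARCA2 was low in every siBRMsiNS library. With dex it had 8.75, 9.81 and 10.4 scaled CPM in siBRMsiNS libraries, against 38.7, 30.0 and 42.8 in siNSsiNS libraries (26.0% of control, edgeR quasi-likelihood without a replicate block, adjusted p = 1.54e-07). With etoh it had 7.41, 9.57 and 9.30 in siBRMsiNS libraries, against 27.9, 27.2 and 35.8 in siNSsiNS libraries (28.9%, adjusted p = 9.78e-07). Scaled CPM is the count per M counts of the library after upper-quartile scaling, with M for 1e6. SMARCA4 stood at 79.6% (dex) and 78.4% (etoh) of control and was not called (edgeR adjusted p = 0.0971 and 0.0988). Within siBRMsiNS, dex gave no call for SMARCA2 (log2 change 0.14 ± 0.11, adjusted p = 0.488) or for the receptor gene NR3C1, at 69.9, 68 and 85.4 CPM with dex against 116, 70.5 and 95.5 with etoh (-0.31 ± 0.11, adjusted p = 0.136). Library totals were 27.4 to 47.1 M counts. Ribosomal RNA (RNA28S5) took 0.622%, 1.92% and 7.51% of dex counts and 0.612%, 3.95% and 6.98% of etoh counts. It differed between replicates, and in replicate 2 also between dex and etoh. In siNSsiNS libraries RNA28S5 took 0.477%, 0.671% and 0.722% of dex counts and 0.434%, 0.43% and 5.46% of etoh counts, so replicate 3 differed there. The 10 tested mesenchymal markers summed to 5210 to 7380 CPM with dex and 5310 to 7620 with etoh, the 5 epithelial markers to 404 to 872 and 372 to 843, and the 2 tested blood markers to 5.83 to 11.2 and 6.90 to 12.3. The 6 endothelial markers summed to 11 to 27.5 CPM with dex and 11.4 to 29.2 with etoh. NT5E, COL1A2, TWIST1, KRT19, ESRP1, GRHL2 and 6 blood markers are not analysed here. KRT8, a keratin, was the only called marker of these lists (log2 change 0.23 ± 0.05). It was not called without replicate 1 or 2 (0.24 and 0.20).

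Among the siBRMsiNS libraries, the dex library of replicate 1 stood apart in one respect. Its index of long over short transcripts, the mean deviation of log2 levels from each gene's mean over the 36 libraries in the longest quartile of genes minus that in the shortest, was -0.248, against -0.0869 and -0.0375 in the other dex libraries and 0.0014 to 0.0164 in the etoh libraries. Counts are therefore also given without that pair. Over the whole series its index was not the lowest. It was -0.320 in the etoh library of replicate 1 with CHD9 siRNA (siCHD9siNS) and -0.268 in siBRMsiHic5 etoh replicate 3.

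Dex raised 362 of 15179 tested genes and lowered 232 with BRM depleted (2.38% and 1.53% of genes, 3.91% in all, edgeR with a term for each replicate pair, adjusted p under 0.05). The rises were larger than the falls: their median log2 change was 0.60, up to 5.47, with 113 at or above 1 and 34 at or above 2, while the falls had a median of -0.37, down to -1.69, with 11 of at least 1 in size. The median of all tested genes was 0.01. The dex and etoh libraries did not overlap for 168 of the 362 rises and 85 of the 232 falls, against 853 genes (5.62%) over the whole table. All 3 pairs moved one way for 359 rises and 232 falls, against 7002 genes (46.1%) over the table. In bulk RNA, fewer cells of a type and less RNA per cell cannot be told apart. The p-values rest on the scatter of dex changes between replicate pairs. That scatter was estimated over all 36 libraries and 6 siRNA conditions, not over these 3 days alone.

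These counts rest on the pairing and, for the falls, on the first pair. Within siBRMsiNS the libraries of the same number deviated together (r over genes 0.763, 0.774 and 0.895, against -0.70 to 0.109 for unlike numbers). The deviations are from each group's mean, so the values for unlike numbers are lower in part by construction. Without the replicate block, 58 rises and 0 falls were called, with 535 genes at an unadjusted p under 0.05. DESeq2, with its own scaling, called 356 rises and 347 falls, so the share of calls that were rises was 50.6%, against 60.9% with edgeR. Without pair 1, 171 rises and 20 falls were called, without pair 2 139 and 53, and without pair 3 305 and 233. Of the genes called with all pairs, 103 rises and 13 falls stayed called whichever pair was left out. All 232 falls kept their direction each time, which was largely given in advance, since all 3 pairs of each were lower.

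The smallest p-values among the rises belonged to textbook GR targets and to less familiar genes alike. TSC22D3 encodes GILZ, a leucine zipper protein that restrains AP-1 and NF-kB. It had 77.5, 54.7 and 53.4 CPM with dex, against 28.6, 14.3 and 13.8 with etoh. All dex libraries were higher than all etoh libraries, and the change was 3.41-fold (log2 1.77 ± 0.10, adjusted p = 8.94e-09). FKBP5, a co-chaperone that lowers the receptor's affinity for hormone, had 142, 203 and 287 CPM with dex, against 58.4, 84.3 and 110 with etoh. Here too the groups did not overlap (log2 1.31 ± 0.08, adjusted p = 1.80e-08). SLC46A3, a lysosomal solute carrier, had 25.5, 41.8 and 34.4 CPM with dex and 11.9, 14.3 and 11.9 with etoh, with no overlap (1.41 ± 0.09). IP6K3, an inositol hexakisphosphate kinase, had 24.4, 17.9 and 24.3 CPM with dex and 8.61, 4.18 and 7.42 with etoh (1.76 ± 0.12, adjusted p = 6.85e-08 for each of the last 2 genes). Every dex value of IP6K3 was above every etoh value.

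**Figure D1:**
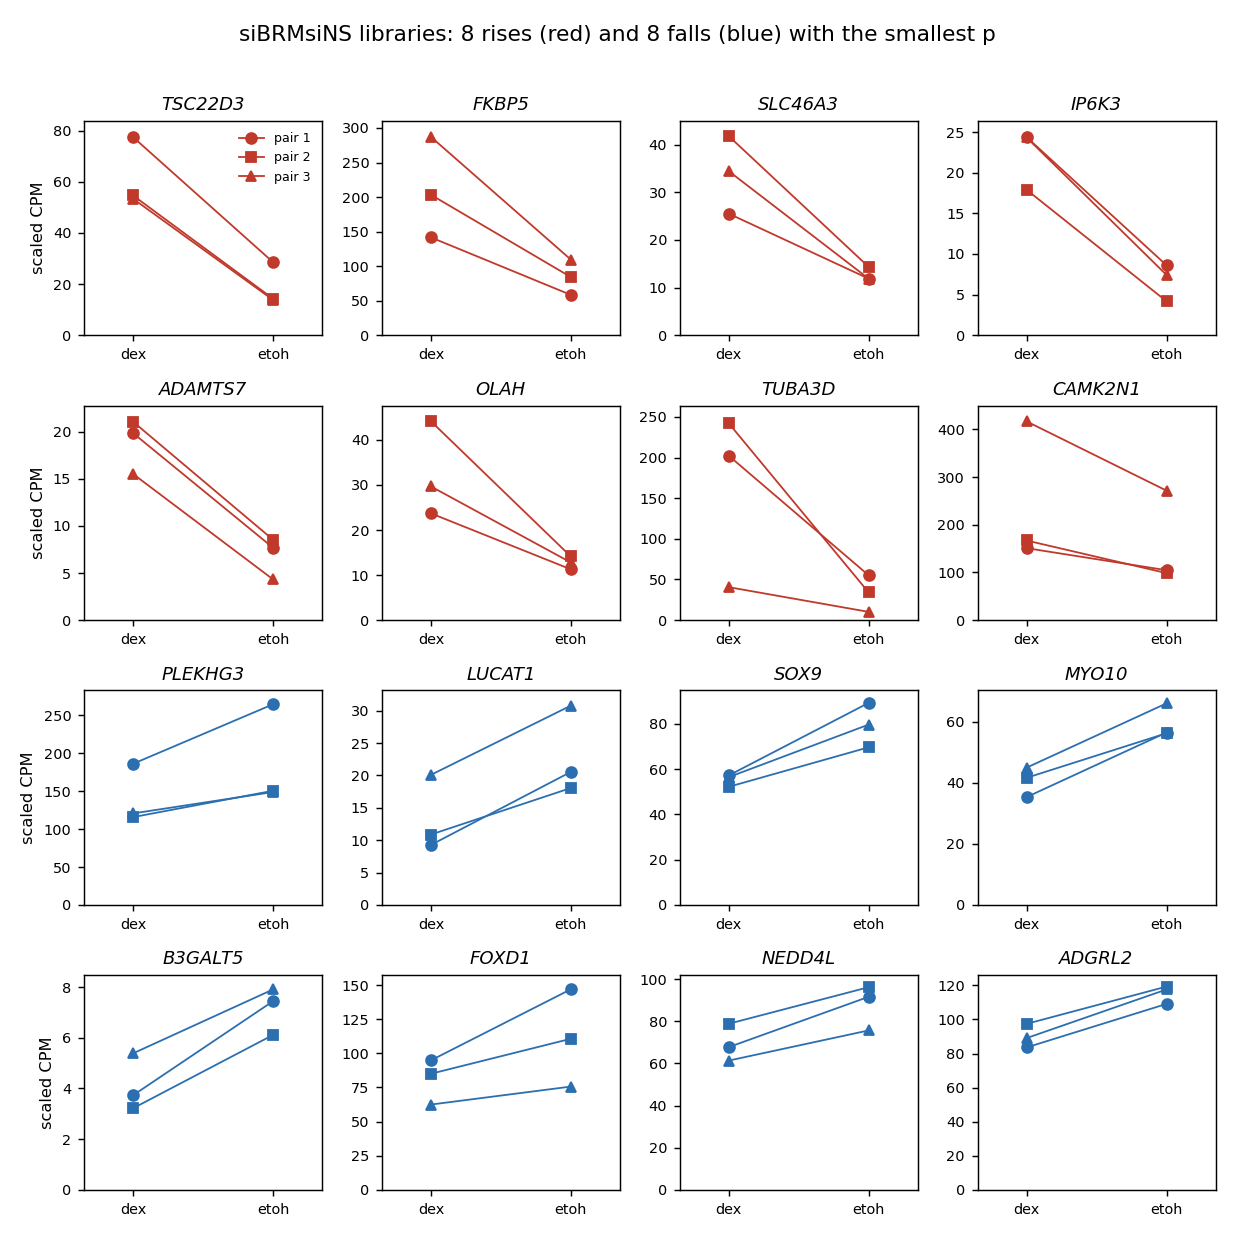
Scaled CPM (counts relative to library size, linear axis from 0) of the 8 rises (red) and the 8 falls (blue) with the smallest p in the siBRMsiNS libraries, dex on the left and etoh on the right, 1 line for each replicate pair. Every line of a rise is higher at dex and every line of a fall is lower at dex, while the level itself differs between pairs, most of all for CAMK2N1 and TUBA3D.

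OLAH, a thioesterase of fatty acid synthesis, had 23.7, 44.1 and 29.7 CPM with dex, against 11.3, 14.1 and 12.8 with etoh (1.32 ± 0.10). ADAMTS7, a secreted metalloproteinase, had 19.9, 21.1 and 15.5 CPM with dex, against 7.69, 8.54 and 4.33 with etoh (1.49 ± 0.11, adjusted p = 4.57e-07 for both). Neither gene's groups overlapped. TUBA3D, an alpha-tubulin, and CAMK2N1, an inhibitor of CaM kinase II, stood at levels that differed widely between pairs. TUBA3D had 202, 242 and 40.6 CPM with dex, against 55.1, 34.1 and 10.2 with etoh. The dex library of replicate 3 was below the etoh library of replicate 1, yet each pair rose (2.24 ± 0.18, adjusted p = 9.21e-07), and without the block it was not called (2.29). Reads of TUBA3D and its near-identical copy TUBA3E could have been split by the counting, so its level is uncertain. CAMK2N1 had 151, 167 and 417 CPM with dex, against 105, 98.6 and 272 with etoh (0.64 ± 0.05), with overlapping groups, and was likewise not called without the block (0.63).

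Among the named rises with a RefSeq promoter window, TSC22D3 and TRIM63, a ubiquitin ligase of muscle atrophy, held the core of a glucocorticoid response element there. Their windows are shown for that reason. A single annotated start was used for each gene, and other starts were not searched. Named rises without a window were not searched either. Each runs from 250 bases before to 50 after the annotated start (RefSeq, build GRCh38.p14), 5′ to 3′ on the gene's strand, with the letters matching ACANNNTGT in capitals. The TSC22D3 window is chrX:107775939-107776238 and the TRIM63 window chr1:26067581-26067880, both on the minus strand.
TSC22D3: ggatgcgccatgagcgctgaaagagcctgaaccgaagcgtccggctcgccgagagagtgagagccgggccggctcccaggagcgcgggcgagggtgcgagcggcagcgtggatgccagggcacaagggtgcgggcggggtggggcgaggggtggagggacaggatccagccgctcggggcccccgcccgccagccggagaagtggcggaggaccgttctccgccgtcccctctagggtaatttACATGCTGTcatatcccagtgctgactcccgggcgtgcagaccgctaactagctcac
TRIM63: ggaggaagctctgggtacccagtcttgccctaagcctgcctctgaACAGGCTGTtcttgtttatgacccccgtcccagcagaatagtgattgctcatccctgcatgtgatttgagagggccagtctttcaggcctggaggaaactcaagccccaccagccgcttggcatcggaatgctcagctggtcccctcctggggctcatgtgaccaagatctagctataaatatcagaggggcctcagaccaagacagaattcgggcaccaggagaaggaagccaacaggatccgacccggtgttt
The match begins 7 bases before the start of TSC22D3 and 205 bases before that of TRIM63. ACANNNTGT reads the same on both strands and shares letters with the shorter element AGAACA, which was searched on both strands as well. ACANNNTGT stood in 1488 of all 27305 RefSeq windows (5.45%), which include genes not tested here, and in 330 of 11787 windows of tested genes (2.8%). Windows were found for 278 of 362 rises, under 80%, so shares among rises and falls were not compared. TRIM63 itself had 0.406, 0.385 and 3.57 CPM with dex, against 0.190, 0.159 and 0.510 with etoh. The dex library of replicate 3 was far above the rest, and the rise (2.26 ± 0.42, adjusted p = 0.00581) was not called without that pair (1.18).

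The largest rises were of genes almost silent without hormone. ACTL8, an actin-like gene of the cancer-testis type, had 5.98, 7.46 and 0.668 CPM with dex, against 0.0317, 0 and 0.209 with etoh (log2 5.47 ± 0.64, adjusted p = 6.05e-05). PNLIP, the pancreatic triglyceride lipase, had 3.18, 3.88 and 0.538 CPM with dex, against 0.190, 0 and 0 with etoh (5.40 ± 0.58). In both genes every dex library was above every etoh library, and replicate 3 had the lowest dex level. MORC1, a germline chromatin protein, had 2.14, 4.31 and 2.30 CPM with dex, against 0.285, 0.106 and 0.0232 with etoh (4.50 ± 0.46). SLC6A19, a neutral amino acid transporter of gut and kidney, had 1.55, 1.13 and 0.711 CPM with dex, against 0.127, 0 and 0.0464 with etoh (4.27 ± 0.48). Neither of these overlapped. The 3 etoh libraries together held 6 to 14 counts for each of the 4 genes, so their folds are imprecise.

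**Figure D2:**
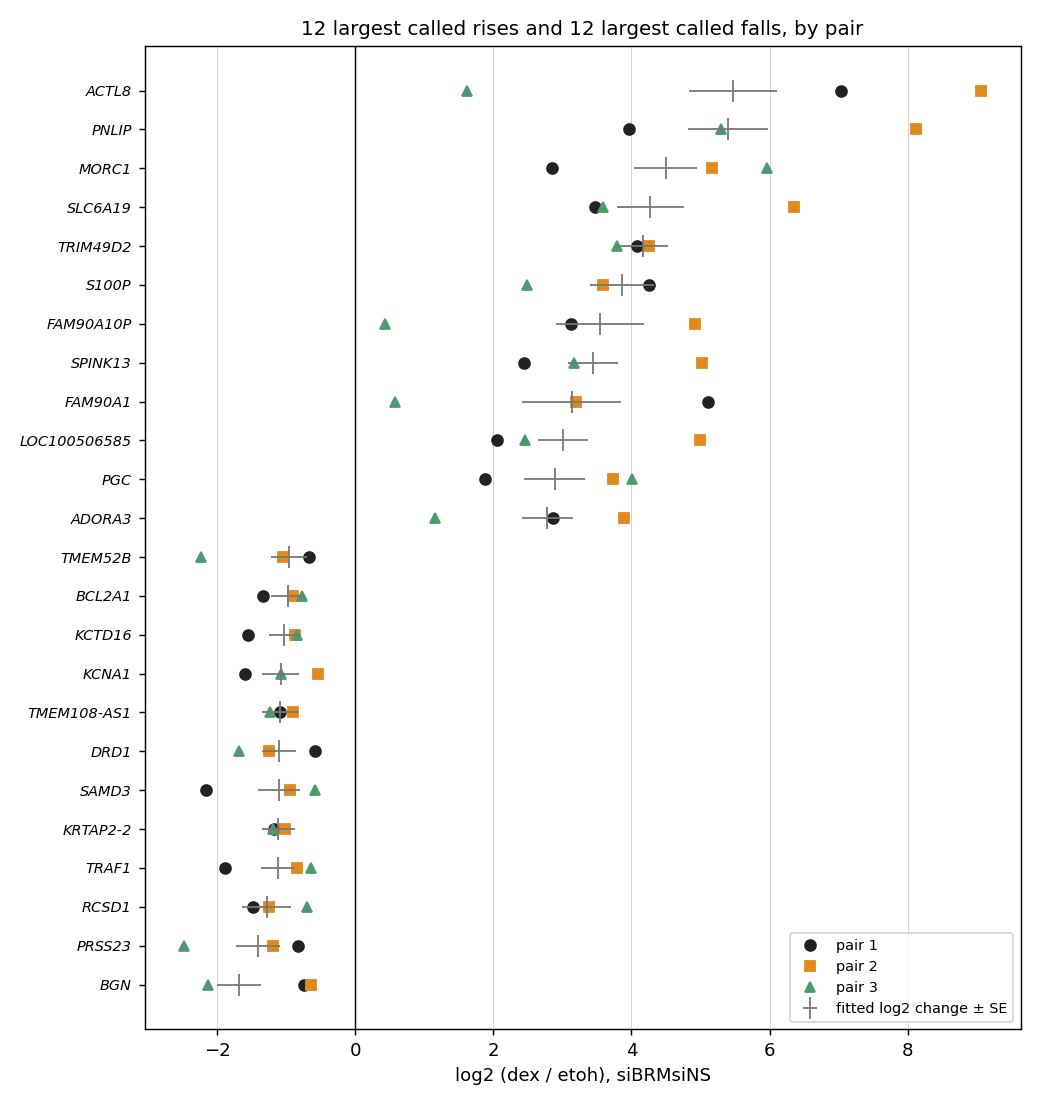
Log2 ratio of dex to etoh in each siBRMsiNS pair (symbols) with the fitted change and its standard error (grey) for the 12 largest called rises and the 12 largest called falls. All points of a gene lie on the same side of 0 because the genes were chosen that way. ACTL8, FAM90A1 and FAM90A10P rose far less in pair 3 than in the others.

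SPINK13, a serine protease inhibitor, was better expressed: it had 7.79, 14.2 and 8.40 CPM with dex, against 1.42, 0.423 and 0.927 with etoh (3.45 ± 0.36, adjusted p = 1.91e-05). FAM107A, a stress- and glucocorticoid-responsive actin regulator, had 8.01, 14.2 and 3.14 CPM with dex, against 2.60, 1.32 and 0.394 with etoh (2.61 ± 0.32). PHACTR3, a regulator of protein phosphatase 1 and actin, had 69.8, 90.1 and 43.3 CPM with dex, against 20.5, 13.5 and 4.01 with etoh (2.59 ± 0.45, adjusted p = 0.0026). The groups of these 3 genes did not overlap. The calcium-binding protein S100P rose by 3.86 ± 0.46, the adenosine receptor ADORA3 by 2.78 ± 0.37 and the insulin-like growth factor binding protein IGFBP1 by 2.74 ± 0.38, all at mean dex levels of 1.44 to 1.91 CPM. The non-coding LOC100506585 rose by 3.00 ± 0.36 and the gastric protease PGC by 2.89 ± 0.44. PGC had no adjusted p without pair 1 or 2, where it missed the low-count filter. TRIM49D2 (4.16 ± 0.37), FAM90A10P (3.54 ± 0.63) and FAM90A1 (3.13 ± 0.71) have near-identical copies, so their counts are uncertain. FAM90A10P was not called without pair 2 (2.75), nor FAM90A1 without pair 1 or 2 (2.35 and 3.04).

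Of 41 tested genes on a list of glucocorticoid-induced genes, 21 rose, 1 fell and 19 did not pass the test (51.2% against 2.38% rises among all genes). Their median log2 change was 0.69, against 0.01 for all tested genes. The list was written from general knowledge with earlier results of these data known. For each list below, the shares to set beside its counts are the same 2.38% rises and 1.53% falls of all tested genes. SCNN1A, a subunit of the sodium channel of epithelia, had 156, 80.1 and 72.0 CPM with dex, against 51.0, 35 and 34.1 with etoh, without overlap (1.30 ± 0.11, adjusted p = 1.39e-06). TIPARP, an ADP-ribosyltransferase that represses the aryl hydrocarbon receptor, had 63.5, 74.1 and 35 CPM with dex, against 26.8, 16.7 and 16.5 with etoh, again without overlap (1.49 ± 0.18). The member that fell was PHLDA1 (-0.63 ± 0.16, adjusted p = 0.0399), and not without pair 1 or 3 (-0.33 and -0.70). Some well-known targets did not pass in the fit to all 36 libraries, and are named here after their values were seen. The kinase SGK1 averaged 42.4 ± 4.69 CPM with dex and 24.6 ± 4.23 with etoh (0.80 ± 0.28, adjusted p = 0.12), and the phosphatase DUSP1 119 ± 11.6 and 77.1 ± 24.8 (0.67 ± 0.35, adjusted p = 0.29; SD, n = 3). In an edgeR fit to the siBRMsiNS libraries alone both were called (adjusted p = 0.0105 for SGK1 and 0.0235 for DUSP1). There 25 of 40 tested members rose. Without pair 2, 11 of the 41 rose.

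**Figure D3:**
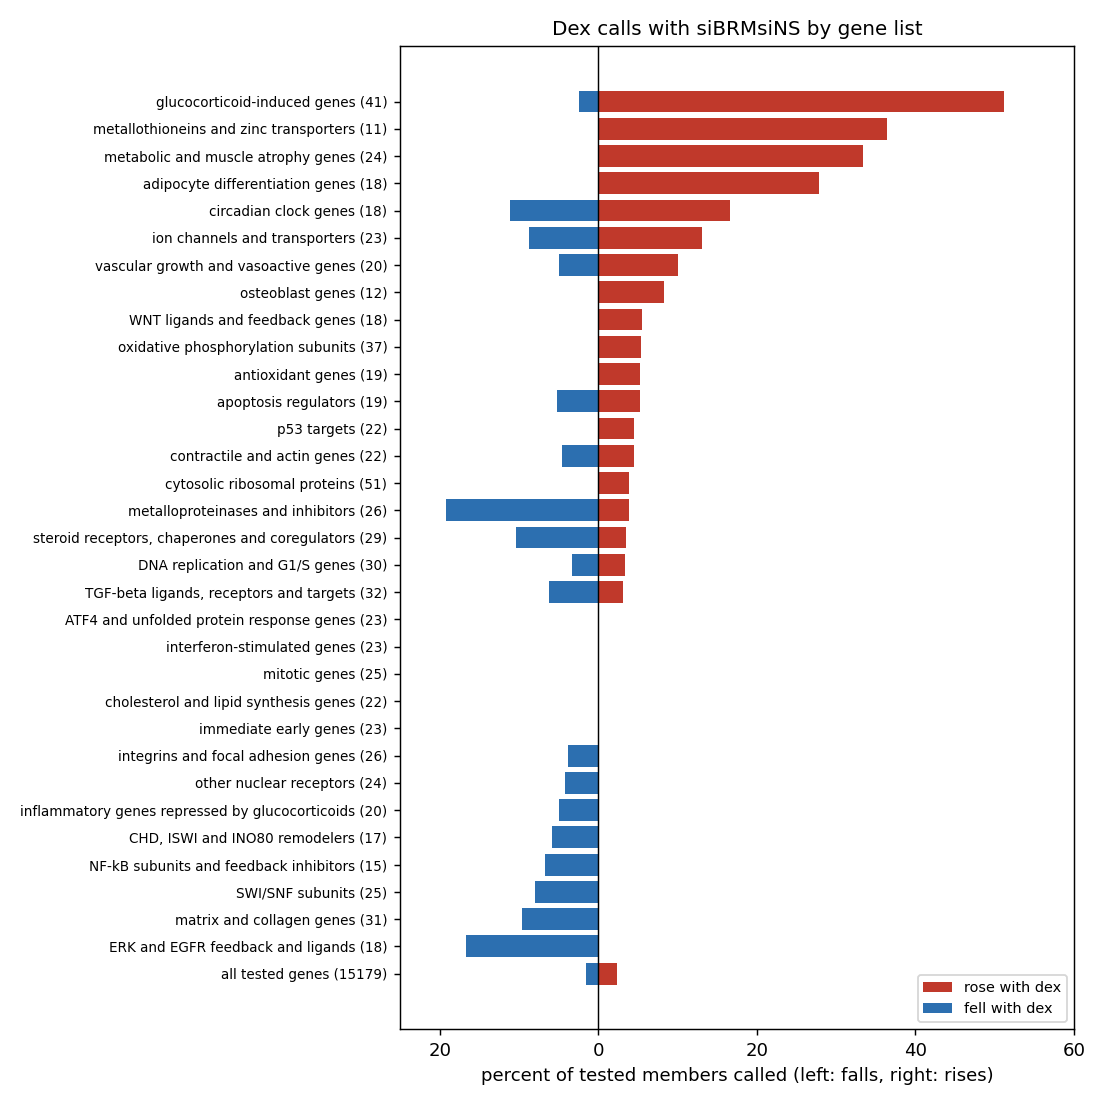
Percent of tested members of each gene list that rose (red, to the right) or fell (blue, to the left) with dex in siBRMsiNS cells, with the number tested in parentheses and all tested genes in the lowest row. Glucocorticoid-induced genes reach 51.2% rises, and the proteases and the ERK and EGFR genes have the highest shares of falls, against 2.38% rises and 1.53% falls among all genes.

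Of 24 metabolic and muscle atrophy genes, 8 rose, 0 fell and 16 did not pass (median 0.20). PDK4, which restrains pyruvate entry into the citric acid cycle, had 153, 197 and 132 CPM with dex, against 91.0, 17.4 and 15.8 with etoh. All dex values exceeded all etoh values, but the first etoh library was well above the other two (2.42 ± 0.53, adjusted p = 0.0129), and the call was lost without pair 2 or 3 (1.86 and 2.07). KLF15, a factor that drives amino acid breakdown, had 6.02, 5.19 and 4.22 CPM with dex, against 0.855, 0.767 and 1.51 with etoh, without overlap (2.26 ± 0.35, adjusted p = 0.000734). The amino acid carrier SLC38A4 rose by 1.47 ± 0.29 and glutamine synthetase GLUL by 1.27 ± 0.25. Without pair 2 neither of those was called (1.18 and 0.97), and 2 of the 24 genes rose.

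Of 18 adipocyte differentiation genes, 5 rose and 0 fell (median 0.24). ZBTB16, encoding the PLZF repressor, had 6.31, 6.71 and 7.26 CPM with dex, against 3.07, 2.51 and 1.39 with etoh. The dex values lay close together and above all etoh values (1.60 ± 0.22, adjusted p = 0.000205). KLF15, CEBPD (1.06 ± 0.22), KLF9 (0.67 ± 0.13) and the lipid droplet protein PLIN2 (0.38 ± 0.09) were the others. KLF9 was not called without pair 2 (0.61), CEBPD not without pair 1 or 2 (0.91 and 0.99), and PLIN2 was not called whichever pair was left out (0.35, 0.42 and 0.37). PPARG (-0.07 ± 0.16) and CEBPA (0.08 ± 0.18), the master regulators of the fat cell, named after their values were seen, did not pass (edgeR adjusted p = 0.838 and 0.856). Without pair 2, 2 of the 18 rose.

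All 4 tested metallothioneins, which bind zinc and copper, rose, while 0 of the 7 tested zinc transporters and regulators of the same list were called (median of the 11 genes 0.07). MT2A had 1200.3, 1105 and 992 CPM with dex, against 552, 636 and 509 with etoh (0.96 ± 0.13, adjusted p = 0.000172). MT1E had 599, 585 and 489 CPM with dex, against 233, 288 and 210 with etoh (1.20 ± 0.11, adjusted p = 2.23e-06). MT1X had 46.0, 38.1 and 35.4 CPM with dex, against 20.0, 20.7 and 19.3 with etoh (0.98 ± 0.12). The groups of all 3 were fully apart. MT1G rose by 0.85 ± 0.15, but not without pair 1 (0.70). The metallothioneins are close paralogs on chromosome 16, so reads may have been split among them.

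Clock genes split. Of 18, 3 rose and 2 fell (median -0.05). PER1, a period gene of the clock's repressor arm, had 192, 107 and 78.8 CPM with dex, against 82.8, 42.8 and 29.4 with etoh. The groups overlapped, and each pair rose (1.32 ± 0.25, adjusted p = 0.00458). The repressor CRY2 rose by 0.37 ± 0.07 and NFIL3 by 0.29 ± 0.06. CLOCK, which activates the period genes with its partner, fell by 0.35 ± 0.07 and ARNTL2, a paralog of that partner, fell by 0.48 ± 0.11. CRY2 was lost without pair 2 (0.30), NFIL3 without pair 1 or 2 (0.28 and 0.29), CLOCK without pair 1 or 2 (-0.23 and -0.38) and ARNTL2 without pair 1 (-0.39).

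Of 23 ion channel and transporter genes, 3 rose and 2 fell (median -0.06). CACNA1I, a T-type calcium channel, had 27, 20.2 and 20.5 CPM with dex, against 4.31, 3.54 and 8.60 with etoh (2.08 ± 0.26, adjusted p = 0.000113), and the potassium channel KCNA4 had 3.06, 2.40 and 2.99 with dex, against 0.697, 1.01 and 0.974 with etoh (1.63 ± 0.28). Neither overlapped. SCNN1A was the remaining rise. NEDD4L, the ubiquitin ligase that removes the sodium channel from the membrane, had 67.7, 78.8 and 61.3 CPM with dex, against 91.6, 96.1 and 75.6 with etoh (-0.34 ± 0.05, adjusted p = 0.000841). Each pair was lower with dex, although the groups overlapped. The potassium channel KCNN4 fell by 0.28 ± 0.07, but not without pair 1 or 2 (-0.27 and -0.25).

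The falls were smaller, and 9 of the 49 falls that the naming rule chose were called whichever pair was left out. LUCAT1, a non-coding RNA induced by stress and immune signals, had 9.27, 10.9 and 20.1 CPM with dex, against 20.5, 18.1 and 30.8 with etoh (-0.81 ± 0.10, adjusted p = 9.95e-05). PLEKHG3, an exchange factor of small GTPases, had 186, 116 and 121 CPM with dex, against 264, 150 and 149 with etoh (-0.40 ± 0.05, adjusted p = 9.81e-05). In both the groups overlapped and every pair fell. LUCAT1 may share reads with genes on the other strand, so its count is uncertain. SOX9, the transcription factor of cartilage, had 57.2, 52.1 and 56.4 CPM with dex, against 89.2, 69.6 and 79.6 with etoh (-0.52 ± 0.07, adjusted p = 0.000318). MYO10, the filopodial myosin, had 35.4, 41.7 and 45.0 CPM with dex, against 56.5, 56.3 and 66.1 with etoh (-0.55 ± 0.08). Every dex value of SOX9 and MYO10 lay below every etoh value.

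B3GALT5, a galactosyltransferase, had 3.73, 3.22 and 5.38 CPM with dex, against 7.44, 6.11 and 7.90 with etoh (57.1% of the etoh level, adjusted p = 0.000514). The nuclear receptor NR2F2 (COUP-TFII) had 43.4, 49.6 and 44.5 CPM with dex, against 57.4, 70.3 and 63.8 with etoh (-0.48 ± 0.09, adjusted p = 0.00364). Neither overlapped. NR2F2 was the only called gene of 24 other nuclear receptors, while 1.53% of all tested genes fell. FOXD1 had 94.9, 85.0 and 62.5 CPM with dex, against 147, 111 and 75.7 with etoh, and ADGRL2 had 83.6, 97.4 and 89.0 with dex, against 109, 119 and 118 with etoh. The groups overlapped for FOXD1 and not for ADGRL2. The forkhead factor FOXD1 (-0.43 ± 0.06) and the adhesion receptor ADGRL2 (-0.36 ± 0.06) complete the 9 with NEDD4L.

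The largest falls were mostly of weakly expressed genes and rested on fewer pairs. BGN, the matrix proteoglycan biglycan, had 0.295, 0.113 and 0.603 CPM with dex, against 0.507, 0.185 and 2.69 with etoh. The etoh library of replicate 3 carried the difference (-1.69 ± 0.32, adjusted p = 0.00528), which was not called without that pair (-0.74). TRAF1, a signalling adaptor of TNF receptors, had 20.1, 11.6 and 20.9 CPM with dex, against 74.2, 20.9 and 32.6 with etoh, without overlap (-1.12 ± 0.25, adjusted p = 0.0145), but was not called without pair 1 or 2 (-0.74 and -1.25). KCNA1, a potassium channel, had 25.9, 13.8 and 10.5 CPM with dex, against 78.3, 20.0 and 22.2 with etoh (-1.09 ± 0.27), with overlapping groups, and was not called without pair 1 or 3 (-0.81 and -1.09). TNFSF15, a TNF family ligand, fell by 0.93 ± 0.17, but not without pair 1 (-0.64). The dopamine receptor DRD1 fell by 1.11 ± 0.24, but not without pair 2 or 3 (-1.04 and -0.90). The first etoh library was the highest for TRAF1, KCNA1, TNFSF15 and DRD1. The protease PRSS23 (-1.41) was lost without pair 2 or 3 (-1.52 and -1.02), SAMD3 (-1.11) without pair 1 or 2 (-0.69 and -1.14) and KCTD16 (-1.03) likewise (-0.87 and -1.14). Also among the 15 largest, RCSD1 (-1.29), KRTAP2-2 (-1.12), TMEM108-AS1 (-1.10), BCL2A1 (-0.98) and TMEM52B (-0.97) were not called whichever pair was left out (-0.83 to -1.39). KRTAP2-2 has close paralogs and TMEM108-AS1 is antisense to another gene, and the sources used here do not say whether the counting used strand, so their counts are uncertain.

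Falls lay mostly among long transcripts. Their median transcript length was 6390 bases, against 3309.5 for the rises and 3594.5 for all tested genes with a length, and their median GC content was 45.1%, against 52.8% and 48.4%. Across deciles of transcript length the median dex change in siBRMsiNS was 0.10 in the shortest and -0.10 in the longest, lower at each step, and the share of genes called as falls was 0.27% in the shortest and 6.21% in the longest. The gradient was steepest in pair 1 (medians 0.22 and -0.19), and present in pairs 2 (0.07 and -0.08) and 3 (0.03 and -0.04). In siBRMsiHic5 it ran the other way (-0.05 and 0.09) and in siNSsiNS the medians were 0.03 and -0.00. With offsets for length and GC added to the fit after the data were seen, 357 rises and 200 falls were called, and 297 of the 362 rises (82.0%) and 149 of the 232 falls (64.2%) stayed called. Of the 232 falls, 188 were largest in pair 1. All 9 falls named as called whichever pair was left out were also called with the offsets.

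**Figure D4:**
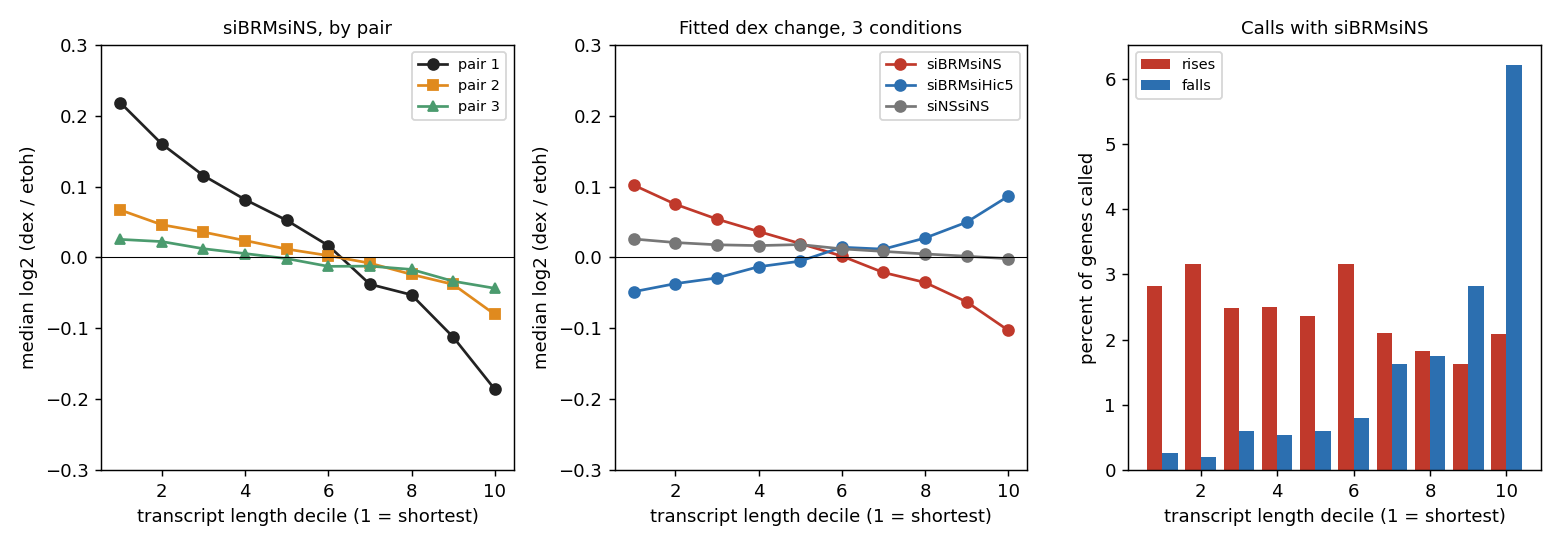
Dex response by decile of transcript length, from the shortest (1) to the longest (10). Left, the median log2 ratio of dex to etoh in each siBRMsiNS pair; middle, the median fitted log2 change in siBRMsiNS, siBRMsiHic5 and siNSsiNS; right, the percent of genes called as rises (red) and falls (blue) in siBRMsiNS. The siBRMsiNS medians run between 0.10 and -0.10 and those of siBRMsiHic5 between -0.05 and 0.09, and the share of falls is 6.21% in the longest decile.

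Genes that glucocorticoids are known to repress were mostly lower, and few passed. Of 20 inflammatory genes, 1 fell, 0 rose and 15 were lower (median -0.47); the median was -0.14 without pair 1. The one that fell was PLAU, the urokinase protease, with 28.5, 18.4 and 90.3 CPM with dex, against 56.9, 25.4 and 158 with etoh. Its level varied widely between pairs and each pair fell (-0.76 ± 0.15, adjusted p = 0.00611), but it was not called without pair 1 (-0.65). The chemokine CXCL8 averaged 8.49 ± 3.69 CPM with dex and 26.4 ± 28.2 with etoh, and the cytokine IL11 21.8 ± 13.9 and 40.4 ± 19.8 (SD, n = 3). Neither passed (adjusted p = 0.456 and 0.134). Both were named after their values were seen. Of 15 NF-kB subunits and feedback inhibitors, TRAF1 alone fell (median -0.02). Of 23 immediate early genes, 0 were called with DESeq2 or in the edgeR fit to all 36 libraries. At an unadjusted p under 0.05 stood 1, against 20.4% of all tested genes. Of the 23 genes, 16 were lower and the median was -0.15, or -0.00 without pair 1. Their smallest p was that of the AP-1 subunit FOSL1, with 64.2, 50.3 and 77.0 CPM with dex, against 130, 63.2 and 87.7 with etoh (-0.51 ± 0.20, adjusted p = 0.157). In an edgeR fit to the siBRMsiNS libraries alone the AP-1 subunit JUN (-0.29, adjusted p = 0.0293) and IER2 (-0.36, adjusted p = 0.0192) of this list, named after their values were seen, were called. That fit also called NFKBIA of the NF-kB list as a rise (0.69, adjusted p = 0.0073). Of the inflammatory genes, 3 of 14 tested fell there, among them LIF (-0.47, adjusted p = 0.026) and MMP3 (-0.56, adjusted p = 0.028). NFKBIA, LIF and MMP3 were likewise named after their values were seen.

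Of 18 ligands and feedback genes of the ERK and EGFR pathways, 3 fell and 0 rose (median -0.21). They were the ERK pathway inhibitor SPRED2 (-0.44 ± 0.08, adjusted p = 0.0035), PHLDA1 and the EGFR inhibitor LRIG1 (-0.27 ± 0.07). SPRED2 had 120, 111 and 96.9 CPM with dex, against 199, 134 and 121 with etoh. Its groups did not overlap, by a narrow margin. Without pair 1, 0 of the 18 fell, the median was -0.01 and SPRED2 stood at -0.29. LRIG1 was not called whichever pair was left out (-0.25, -0.32 and -0.23).

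Proteases and matrix genes added further falls. Of 26 metalloproteinases, related proteases and inhibitors, 5 fell and MMP15, a membrane-bound metalloproteinase, rose (median -0.22). The named falls were PLAU, the aggrecanase-like ADAMTS12 (-0.45 ± 0.10), ADAM19 (-0.53 ± 0.12) and MMP16 (-0.49 ± 0.12), and the collagenase MMP13 (-0.80 ± 0.21, edgeR adjusted p = 0.0359) was the last, named after its value was seen. ADAMTS12 and ADAM19 were not called without pair 1 (-0.35 and -0.42) or pair 2 (-0.44 and -0.55), and MMP16 was not called whichever pair was left out (-0.48 to -0.51). MMP15 had 54.6, 40.7 and 36.3 CPM with dex, against 24.7, 24.7 and 17.9 with etoh (0.96 ± 0.20, adjusted p = 0.00839), without overlap. Without pair 1, 0 of the 26 were called in either direction, with MMP15 at 0.87. Of 31 matrix and collagen genes, 3 fell and 0 rose (median -0.07). They were BGN, TGFBI, a TGF-beta-induced matrix protein with 28.7, 17.2 and 23.1 CPM with dex against 61.4, 29.4 and 34.2 with etoh (-0.81 ± 0.15, adjusted p = 0.00377), and the long collagen COL12A1 (-0.26 ± 0.06). TGFBI was not called without pair 1 (-0.66), nor COL12A1 without pair 1 or 2 (-0.17 and -0.26). The transcripts of ADAMTS12, MMP16 and COL12A1 are 8774, 11558 and 11723 bases long, and MMP16 (-0.36) and COL12A1 (-0.14) were not called with the length and GC offsets.

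The chromatin and coregulator genes that fell did so by little, and among all tested genes 1.53% fell. Of 25 SWI/SNF subunits, BRD9 (-0.26 ± 0.07) and SMARCC1 (-0.17 ± 0.04) fell and 0 rose (median -0.03). Of 17 CHD, ISWI and INO80 remodelers, 16 were lower and SRCAP fell (-0.32 ± 0.09, adjusted p = 0.0495, median -0.11). That median was -0.06 without pair 1 and -0.03 with the length and GC offsets. The acetyltransferases CREBBP (-0.21 ± 0.05) and EP300 (-0.22 ± 0.06) and the corepressor NCOR1 (-0.24 ± 0.06) fell among 29 steroid receptor genes, chaperones and coregulators, of which FKBP5 alone rose (median -0.08). None of these 6 falls was called without pair 1 (-0.15 to -0.26) or without pair 2 (-0.15 to -0.27). With the length and GC offsets SMARCC1, SRCAP, CREBBP, EP300 and NCOR1 were not called (-0.11 to -0.24), and their transcripts are 6375 to 11754 bases long. Ribosomal and respiratory chain genes were slightly higher. All 51 cytosolic ribosomal protein genes were higher with dex (median 0.14) and 36 of 37 oxidative phosphorylation genes (median 0.12), with 2 called in each (RPS28 and RPL13, COX6B1 and COX5B). RPS28 and COX5B were not called whichever pair was left out (0.13 to 0.30), nor RPL13 and COX6B1 without pair 1 (0.12 and 0.18) or pair 2 (0.22 and 0.26). The medians were 0.06 and 0.07 without pair 1, where again 0 were called. They were 0.08 and 0.08 with the offsets, where 0 of either list were called, and 0.03 and 0.02 in siNSsiNS. Ribosomal proteins have many processed pseudogenes, so their counts are uncertain.

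The response was set against that of control siRNA to ask which genes respond differently when BRM is depleted. No gene passed: 0 differences of dex responses between siBRMsiNS and siNSsiNS were called (0%, edgeR, lowest adjusted p = 0.901), with 614 genes (4.05%) at an unadjusted p under 0.05, and DESeq2 called 1. The median standard error of a difference was 0.13 on the log2 scale, so this does not show that the responses were alike. The separate counts were 362 rises and 232 falls with siBRMsiNS, and 284 rises (1.87%) and 95 falls (0.626%) with siNSsiNS, 379 calls or 2.5% in all. Of the siBRMsiNS rises, 197 were also called with siNSsiNS, which is 54.4% of the siBRMsiNS rises and 69.4% of the siNSsiNS rises. Of the falls it was 39, which is 16.8% and 41.1%. By sign alone, 359 of the 362 rises and 221 of the 232 falls went the same way in siNSsiNS, against 9727 of all 15179 tested genes. Across 14390 genes with a mean of at least 1 CPM the log2 changes correlated at r = 0.766, a description over genes that are not independent replicates. The conditions share no libraries, but share 1 fit and its estimate of spread.

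**Figure D5:**
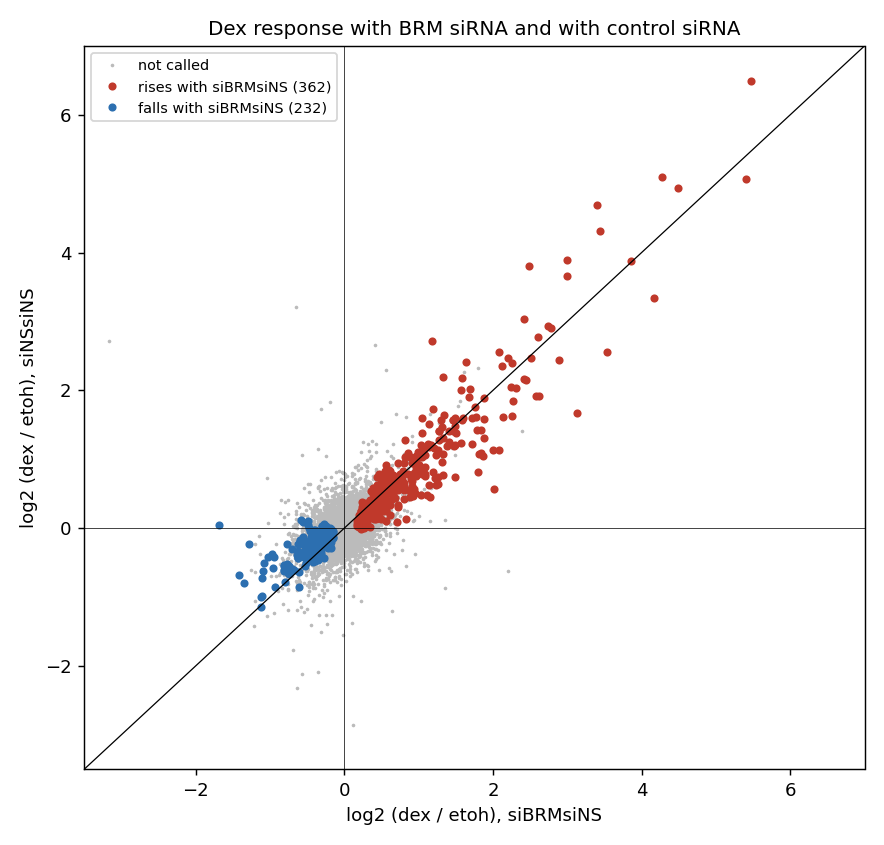
Log2 change with dex in siBRMsiNS (x) and in siNSsiNS (y) for each tested gene, with the line of equal change. The 362 siBRMsiNS rises (red) lie along the line up to ACTL8, at 5.47 and 6.49, and the 232 falls (blue) cluster between 0 and -1.69.

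No canonical target passed the test of the difference. The change of TSC22D3 was 1.77 with siBRMsiNS and 1.62 with siNSsiNS (difference 0.15 ± 0.13), that of FKBP5 1.31 and 1.47 (-0.16 ± 0.11), that of SCNN1A 1.30 and 1.57 (-0.28 ± 0.16) and that of PER1 1.32 and 0.95 (0.37 ± 0.35). SLC46A3, IP6K3, OLAH and ZBTB16 differed by 0.00 to 0.01 (SE 0.13 to 0.26).

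Of the 41 glucocorticoid-induced genes, 21 rose with siBRMsiNS and 22 with siNSsiNS, with medians of 0.69 and 0.57. The 23 immediate early genes had medians of -0.15 with siBRMsiNS and -0.64 with siNSsiNS. These list differences were not tested.

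The differences with the smallest p are given as values, since none passed. ADAMTS7 rose by 1.49 ± 0.11 with siBRMsiNS and by 0.75 ± 0.12 with siNSsiNS, where it had 15.8, 10.7 and 15.4 CPM with dex, against 8.55, 7.70 and 8.41 with etoh (difference 0.74 ± 0.16, adjusted p = 0.901). The etoh level was lower in the siBRMsiNS replicate 3 library (4.33 CPM) than in any siNSsiNS library. NIPAL2, a magnesium transporter-like protein, rose by 2.01 ± 0.28 with siBRMsiNS and stood at 0.57 ± 0.25 with siNSsiNS (1.44 ± 0.39), at 1.18, 1.41 and 1.18 CPM with dex, against 0.412, 0.185 and 0.348 with etoh in siBRMsiNS. KCNQ3, a subunit of the neuronal M-current channel, was the gene DESeq2 called. In siBRMsiNS it had 28.0, 41.2 and 35.6 CPM with dex, against 35, 37.0 and 36.8 with etoh (-0.07 ± 0.12). In siNSsiNS it had 28.4, 26.5 and 33.2 CPM with dex, against 17.9, 10.7 and 22.2 with etoh (0.83 ± 0.13, adjusted p = 0.00101). The siBRMsiNS etoh libraries were thus above every siNSsiNS etoh library, and the difference was -0.90 ± 0.18 (edgeR adjusted p = 0.901, 0.0107 with DESeq2, 0.0107 to 1 over the alternatives). PRLR, the prolactin receptor, fell by 0.49 ± 0.10 with siBRMsiNS and stood at 0.10 ± 0.10 with siNSsiNS (-0.59 ± 0.14). That fall was not called without pair 1 or 3 (-0.38 and -0.44). LZTS3 (0.43 ± 0.11) and INVS (-0.39 ± 0.10) were the remaining 2 of the 6.

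Against siBRMsiHic5, which adds siRNA to Hic-5, 0 differences were called (0%, edgeR, lowest adjusted p = 0.0586), with 2301 genes (15.2%) at an unadjusted p under 0.05. DESeq2 called 42 genes higher and 183 lower in siBRMsiNS, and without siBRMsiNS pair 3 edgeR called 1 higher and 57 lower. The siBRMsiHic5 response itself had 635 rises (4.18%) and 268 falls (1.77%), 903 calls or 5.95% in all. Of the siBRMsiNS rises 234 were also called there (64.6% of these and 36.9% of the siBRMsiHic5 rises), and of the falls 46 (19.8% and 17.2%). By sign, 348 of 362 rises and 154 of 232 falls went the same way, against 8075 of all 15179 tested genes. Only the falls held opposite calls: in 4 genes a siBRMsiNS fall was a called rise in siBRMsiHic5, which are KIAA1328, BOD1L1, LINC00506 (-0.34 ± 0.08 and 0.27 ± 0.08) and the histone methyltransferase ASH1L (-0.25 ± 0.06 and 0.24 ± 0.06), the last pair named after their values were seen. KIAA1328 had 51.3, 60.7 and 64.0 CPM with dex, against 81.2, 75.6 and 76.6 with etoh in siBRMsiNS (-0.41 ± 0.09). In siBRMsiHic5 it had 78.6, 73.8 and 69.0 with dex, against 67.6, 58.1 and 52.1 with etoh (0.32 ± 0.09), for a difference of -0.73 ± 0.12 (adjusted p = 0.0586). It was not called as a siBRMsiNS fall without pair 1 (-0.29).

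AHNAK, a giant scaffold protein with a transcript of 18787 bases, stood at -0.07 ± 0.09 with siBRMsiNS and rose by 0.72 ± 0.09 with siBRMsiHic5 (difference -0.79 ± 0.13). BOD1L1, a protector of replication forks with a transcript of 10565 bases, changed by -0.23 ± 0.06 and 0.26 ± 0.06 (-0.49 ± 0.08). BOD1L1 was not called as a fall without pair 1 or 2 (-0.16 and -0.26), nor with the offsets (-0.11). TMEM158 stood at -0.02 ± 0.10 and fell by 0.72 ± 0.11 in siBRMsiHic5 (0.70 ± 0.15). The zinc finger protein ZSCAN18 (difference 0.39 ± 0.08) and RPS19BP1 (0.43 ± 0.09) were the others with the smallest p. None of these 6 differences was called in the edgeR fit to all libraries (adjusted p = 0.0586 to 0.0673). DESeq2 called all 6 (adjusted p = 0.00012 to 0.0172), and without siBRMsiNS pair 3 edgeR called those of KIAA1328, BOD1L1 and AHNAK (0.0299 to 0.0382). Over the alternatives their adjusted p ran up to 1. The long-over-short index moved with this comparison: dex minus etoh was -0.261, -0.0883 and -0.0539 in the siBRMsiNS pairs and 0.0453, 0.0901 and 0.148 in the siBRMsiHic5 pairs. Its part in the differences was not tested.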

How the data were processed

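The values are whole-number read counts per gene for 36 libraries, deposited by the authors as 1 table of 15186 genes. The table's name speaks of normalised CPM, but its values are raw counts with totals that differ between libraries. Reads were aligned with TopHat2 2.1.1 to GRCh38 and edgeR was used, per the submitters' processing notes. The sources used here name no counter, annotation or strand setting. From the counts, upper-quartile factors and scaled CPM were computed, and the tests covered 15179 genes whose scaled CPM exceeded 1 in 3 or more libraries (7 left out).

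edgeR 4.0.16 (R 4.3.3) quasi-likelihood tests were fitted to all 36 libraries, with 18 terms for siRNA condition by replicate number and 6 dex terms, which leaves 12 residual degrees of freedom. P-values were adjusted by Benjamini-Hochberg over all tested genes, and a call is an adjusted p under 0.05. Errors of log2 changes are standard errors. The numbers pair dex with etoh libraries because a replicate of a condition was made on its own day, per the labels' protocols, and over all 6 siRNA conditions the deviations of same-numbered libraries correlated at 0.379 to 0.895. No pair of replicates of the siBRMsiNS and siNSsiNS groups agreed within sampling noise (chi-square per degree of freedom 69.8 to 287 within the siBRMsiNS groups and 9.59 to 146 within the siNSsiNS groups). SMARCA2 was compared between siRNA conditions with 12 group means and no block. The fit was tested on simulated data.

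Named genes were the 15 rises and 15 falls with the largest change and a mean of at least 1 CPM in a group with all 3 pairs in 1 direction, the 8 rises and 8 falls with the smallest p, up to 5 called members of each list (or the member with the smallest p), the 3 smallest p each way for each difference, and the receptor and siRNA targets. A fall that this rule names is not reported here. The members and lists were chosen with earlier results of these data known. Alternatives were no block, TMM, RLE or no scaling, other filters, DESeq2 1.42.0, a fit to the compared conditions only, each pair left out, and, added after seeing the data, length and GC offsets. 0 columns belonged to another series.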

Additional observations from a re-analysis of the deposited data

Results flagged for a closer look

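The long-over-short transcript index moved in opposite directions with dex in the conditions that share siRNA against BRM. Dex minus etoh was -0.261, -0.0883 and -0.0539 in the 3 siBRMsiNS pairs and 0.0453, 0.0901 and 0.148 in the 3 siBRMsiHic5 pairs, so every pair of one condition went down and every pair of the other went up. The means were -0.134 ± 0.111 and 0.0945 ± 0.0515 (SD, n = 3 each), a difference of -0.229. The difference was not tested. In siNSsiNS the 3 pairs stood at -0.0199, 0.0302 and -0.0527 (mean -0.0141 ± 0.0417).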

How the results depend on the processing

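With a pair left out, 357 to 361 of the 362 rises and all 232 falls stood in the same direction. That was largely given in advance, since all 3 pairs moved one way for 359 rises and 232 falls. The counts of calls were not stable. The 362 rises and 232 falls with siBRMsiNS became 58 and 0 without the replicate block, and 139 to 305 and 20 to 233 when 1 pair was left out. TMM gave 341 and 282, RLE 348 and 279, no scaling 354 and 212, no filter 362 and 232, a CPM filter of 5 307 and 220, DESeq2 356 and 347, a fit to the compared conditions 270 and 167, and length and GC offsets 357 and 200. The siNSsiNS calls were 379, with 52 without the block and 146 to 231 with a pair left out. The siBRMsiHic5 calls were 903, with 76 without the block, 441 in the fit to the compared conditions and 452 to 491 with a pair left out. Against siNSsiNS DESeq2 called 1 difference, and against siBRMsiHic5 225, with 0 to 58 when a pair was left out. SMARCA2 stood at -1.94 (dex) and -1.79 (etoh) against siNSsiNS, and at -1.93 and -1.78 with the replicate block. Among genes not called, the sign turned when a pair was left out for SMARCA4 (-0.081 to 0.021), KCNQ3 (-0.18 to 0.052), TMEM158 (-0.062 to 0.055) and AHNAK (-0.19 to 0.044), and with the offsets for KCNQ3 (0.051) and AHNAK (0.077); the cause was not tested. The medians of 17 of the 36 gene lists, each within 0.09 of 0, turned sign without a pair. Depth was 27.4 to 47.1 M counts, and the median standard error of a dex response was 0.09 on the log2 scale.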

Other observations

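Growth and vessel genes gave scattered calls, against 2.38% rises and 1.53% falls among all tested genes. EDN3, a vasoactive peptide, had 3.25, 2.45 and 2.30 CPM with dex, against 0.950, 0.344 and 0.301 with etoh (log2 2.42 ± 0.31, edgeR adjusted p = 0.000114), without overlap. It was called whichever pair was left out. With the dilator peptide ADM (0.57 ± 0.14) it made 2 rises of 20 vascular genes, and PODXL, a sialomucin, fell (-0.52 ± 0.09, list median 0.12). ADM was not called without pair 1 or 2 (0.40 and 0.56), nor PODXL without pair 1 (-0.40). The cyclin CCND3 had 173, 143 and 119 CPM with dex, against 129, 109 and 72.2 with etoh (0.51 ± 0.07, adjusted p = 0.000428). The groups overlapped, each pair rose, and the call held whichever pair was left out. It was the 1 rise of 30 replication and G1/S genes, with the polymerase subunit POLE2 as the 1 fall (-0.21 ± 0.06, list median 0.03), which was not called whichever pair was left out (-0.19 to -0.25).

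With 2.38% rises and 1.53% falls among all tested genes, a single call in a list says little about that list. Of 32 TGF-beta genes, FSTL3, an activin antagonist, rose (0.44 ± 0.08) and TGFBI and the ligase SMURF2 (-0.40 ± 0.09) fell (median -0.03). FSTL3 was not called without pair 1 (0.40), nor SMURF2 without pair 1 or 2 (-0.33 and -0.41). The integrin ITGA6 was the 1 fall of 26 integrin and adhesion genes (-0.34 ± 0.08, median -0.08), and was not called without pair 1 or 2 (-0.21 and -0.39). Of 22 contractile and actin genes, PHACTR3 rose and ACTN1 fell (-0.18 ± 0.04, median -0.04), the second not without pair 1 or 2 (-0.11 and -0.18). Single rises were the osteoblast factor MSX2 (0.72 ± 0.14) among 12 osteoblast genes (median -0.06), the WNT inhibitor NKD1 (0.56 ± 0.15) among 18 WNT genes (0.02), the oxidoreductase TP53I3 (0.45 ± 0.08) among 22 p53 targets (-0.01) and the glutathione enzyme GCLC (0.22 ± 0.05) among 19 antioxidant genes (0.01). MSX2 was not called without pair 2 (0.58), NKD1 without pair 1 or 2 (0.72 and 0.24), TP53I3 without pair 1 (0.41) and GCLC without pair 2 or 3 (0.21 and 0.21). Of 19 apoptosis regulators the survival factor BCL2L1 rose (0.45 ± 0.09; 0.38 and 0.40, not called, without pair 1 or 3) and BCL2A1 fell (median 0.03).

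No gene of 4 lists passed in the edgeR fit to all libraries. At an unadjusted p under 0.05 stood 6 of 22 cholesterol genes, 4 of 23 interferon-stimulated genes, 2 of 25 mitotic genes and 2 of 23 ATF4 and unfolded protein genes. Over all tested genes it was 3100 (20.4%), so these numbers do not set the lists apart. DESeq2 called 1 cholesterol gene and 0 of the other 3 lists. The smallest p among 22 cholesterol genes was that of NSDHL (0.45 ± 0.13, adjusted p = 0.0567, list median -0.01), among 23 interferon-stimulated genes that of USP18 (0.52 ± 0.15, 0.0604, median 0.04), among 25 mitotic genes that of AURKB (0.22 ± 0.09, 0.198, median 0.09) and among 23 ATF4 and unfolded protein genes that of CRELD2 (0.14 ± 0.06, 0.208, median 0.04). Without pair 3, edgeR called NSDHL (0.66, adjusted p = 0.0126) and USP18 (0.74, adjusted p = 0.0263), and DESeq2 called NSDHL (0.0144). Of the 4 genes named, USP18 alone had no overlap between dex and etoh libraries.

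The genes called with dex after siRNA against Hic-5 alone, which share no libraries with the conditions here, gave 662 rises with a median of 0.26 in siBRMsiNS and 0.28 in siNSsiNS, and 693 falls with medians of -0.23 and -0.16.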
